A study of Mus musculus with 6 samples.

Results

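The glycolysis and hypoxia response genes are 34 genes chosen by symbol from 23358 gene entries, without use of their levels. They comprised 2 glucose transporters, 2 hexokinases, 9 genes of upper glycolysis, 6 of lower glycolysis, 5 of pyruvate and lactate handling, 5 of the hypoxia-inducible factor (HIF) and oxygen-sensing machinery, and 5 hypoxia targets. Of the 34, 33 were listed under their own symbol and Pkm under the older symbol Pkm2, and all 34 were among the 16415 genes with enough counts to be tested. RNA was sequenced from 6 spontaneous soft tissue tumors, each from a different female mouse. Both lines carried NT3, a NIK allele without the TRAF3 binding domain that lies behind a floxed STOP cassette in the ROSA26 locus, so that Cre switches on a NIK protein that escapes degradation. In Osx-Cre;NT3 mice Cre came from a Tet-OFF transgene under Osterix (Sp7), a gene of the bone-forming lineage, and the mice ate doxycycline chow until weaning. In FSP1-Cre;NT3 mice Cre came from the FSP1 (S100a4) promoter, which is active in fibroblasts and has also been seen in myeloid cells. The NT3 parents were C57Bl/6J, the Osx-Cre parents mixed C57Bl/6J and CD1, and the FSP1-Cre parents FVB/n. Tumors 13, 18 and 25 (Osx-Cre;NT3) were all from the trunk, with latencies of 150, 168 and 115 days. Tumors 27 and 36 (FSP1-Cre;NT3) were perineal, with latencies of 101 and 52 days, and tumor 29 of that line was from the trunk, at 72 days. Latency, strain background and chow therefore cannot be told apart from the line, and site overlaps with it.

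Glycolysis splits glucose into pyruvate in the cytosol, and lactate dehydrogenase turns pyruvate into lactate when it is not burned in mitochondria. Cells take up glucose through GLUT transporters and trap it with hexokinase, and many tumors run this pathway fast even in the presence of oxygen. When oxygen is short, the prolyl hydroxylases (Egln genes) stop marking HIF alpha subunits for destruction by the Vhl ubiquitin ligase. The stabilized subunits pair with Arnt, bind DNA at a short core sequence and raise transcription of most glycolytic enzymes, of Egln1 and Egln3 themselves, and of targets such as Car9, Bnip3 and Adm.

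Total counts ranged from 51824408 to 163297772 per tumor, so the number of tumors rather than depth limited the precision. All counts were even, as when both ends of a pair are counted, so fragments may be fewer than these totals. Levels are given as CPM, counts relative to library size, with TMM as the correction for library composition. The ribosomal RNA precursor Rn45s took 5.28 to 13.3% of counts, most in tumor 36. All 8 fibroblast markers were detected in these soft tissue tumors and summed to between 5668 and 15600 CPM, while basal keratinocyte markers summed to between 5687 and 14250 CPM. In bulk tumor RNA, fewer cells of a type and less RNA per cell cannot be told apart. The labelled mean RNA integrity number was 7.7 in the Osx-Cre;NT3 tumors, and in those of the other line it was 8.5. The part of RNA quality in the results was not tested.

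The HIF core sequence was searched for in the promoters because many members are known HIF targets. RefSeq promoters (build GRCm38.p6, 250 bases before to 50 bases after a start) were matched for 31 of the 34 members, by symbol. Slc2a3, Epas1 and Ndrg1 had no entry. The core was taken as ACGTG or GCGTG on either strand, so that CACGTG counts once on each strand. It occurred in 35 of 44 member windows (79.5%), against 43.8% of all 32851 windows of the same length. Some windows of the same gene overlap, so that a match can count more than once. By gene, 27 of the 31 members held either core and 20 held ACGTG, a count not made for all genes. ACGTG alone was in 52.3% of member windows and in 19.6% of all. Member windows were also richer in G and C, with a median of 61.8% against 52.7%, and among windows of at least 60% GC the shares were 91.7% and 69.2% for either core, and 70.8% and 26.5% for ACGTG alone. A match is a string of letters and not a shown binding site.

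Shown here are the 250 bases before the start of 4 members that recur below, with the core in capitals on either strand (CACGT and CACGC are its reverse complements). Bnip3 had the lowest p between the lines, Ldha and Pgk1 were abundant enzymes whose lines did not overlap, and Tpi1 was such an enzyme without the core in this stretch. Bnip3 lies at chr7:138909507-138909756 on the minus strand, Ldha at chr7:46845554-46845803 on the plus strand, Pgk1 at chrX:106186850-106187099 on the plus strand and Tpi1 at chr6:124814159-124814408 on the minus strand.
Bnip3: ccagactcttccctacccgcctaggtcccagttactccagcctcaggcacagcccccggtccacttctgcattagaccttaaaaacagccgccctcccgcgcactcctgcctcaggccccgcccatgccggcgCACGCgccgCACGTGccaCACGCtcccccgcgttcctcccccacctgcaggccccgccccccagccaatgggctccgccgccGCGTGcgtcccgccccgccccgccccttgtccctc
Ldha: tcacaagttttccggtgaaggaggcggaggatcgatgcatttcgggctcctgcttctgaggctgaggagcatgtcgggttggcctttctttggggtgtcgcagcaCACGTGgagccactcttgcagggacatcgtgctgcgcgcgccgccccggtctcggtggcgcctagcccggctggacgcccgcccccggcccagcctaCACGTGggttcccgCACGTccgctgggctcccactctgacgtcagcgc
Pgk1: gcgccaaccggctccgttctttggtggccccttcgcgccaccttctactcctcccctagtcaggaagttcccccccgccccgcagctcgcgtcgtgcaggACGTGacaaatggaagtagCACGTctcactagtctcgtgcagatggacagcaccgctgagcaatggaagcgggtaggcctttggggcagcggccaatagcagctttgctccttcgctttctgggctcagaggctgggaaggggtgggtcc
Tpi1: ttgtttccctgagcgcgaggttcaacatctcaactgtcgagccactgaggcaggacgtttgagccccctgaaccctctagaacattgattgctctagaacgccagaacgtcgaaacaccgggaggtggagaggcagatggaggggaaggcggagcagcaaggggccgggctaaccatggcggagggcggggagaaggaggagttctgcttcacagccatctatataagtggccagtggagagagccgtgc
Bnip3 and Ldha each held 5 matches, Pgk1 held 2 and Tpi1 held 0.

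Between genes, levels were compared as the authors' RPKM, which divides by gene length. Pkm, the pyruvate kinase of the last step, and Ldha, which makes lactate, led the members with means of 330 and 326 RPKM, ranks 164 and 167 of all entries. Pgk1, which makes the first ATP of the pathway, followed with 272 RPKM, then Ldhb with 268, Aldoa with 249 and Tpi1 with 240. At the other end were Slc2a3 (GLUT3) with 0.637, Ankrd37 with 3.28, Eno1 with 3.31, Car9 with 3.57 and Pfkfb4 with 3.70 RPKM. Gapdh, usually among the most abundant glycolytic messages, was at rank 1371 with 44.5 RPKM. The Gapdh, Eno1 and Pgk1 levels are uncertain, because 82.5% of the 50-base stretches of the Gapdh transcript, 72.2% of those of Eno1 and 68.0% of those of Pgk1 also occur in transcripts of other genes (GENCODE M21), most of them copies. How reads shared by such copies were counted is not given in the sources used here. The same limit applies to a smaller part of Bnip3 (62.4%), Pgam1 (41.5%), Pkm (34.4%), Ldhb (27.0%) and Gpi1 (25.3%). In every other member the shared part was at most 17.1%.

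**Figure D1:**
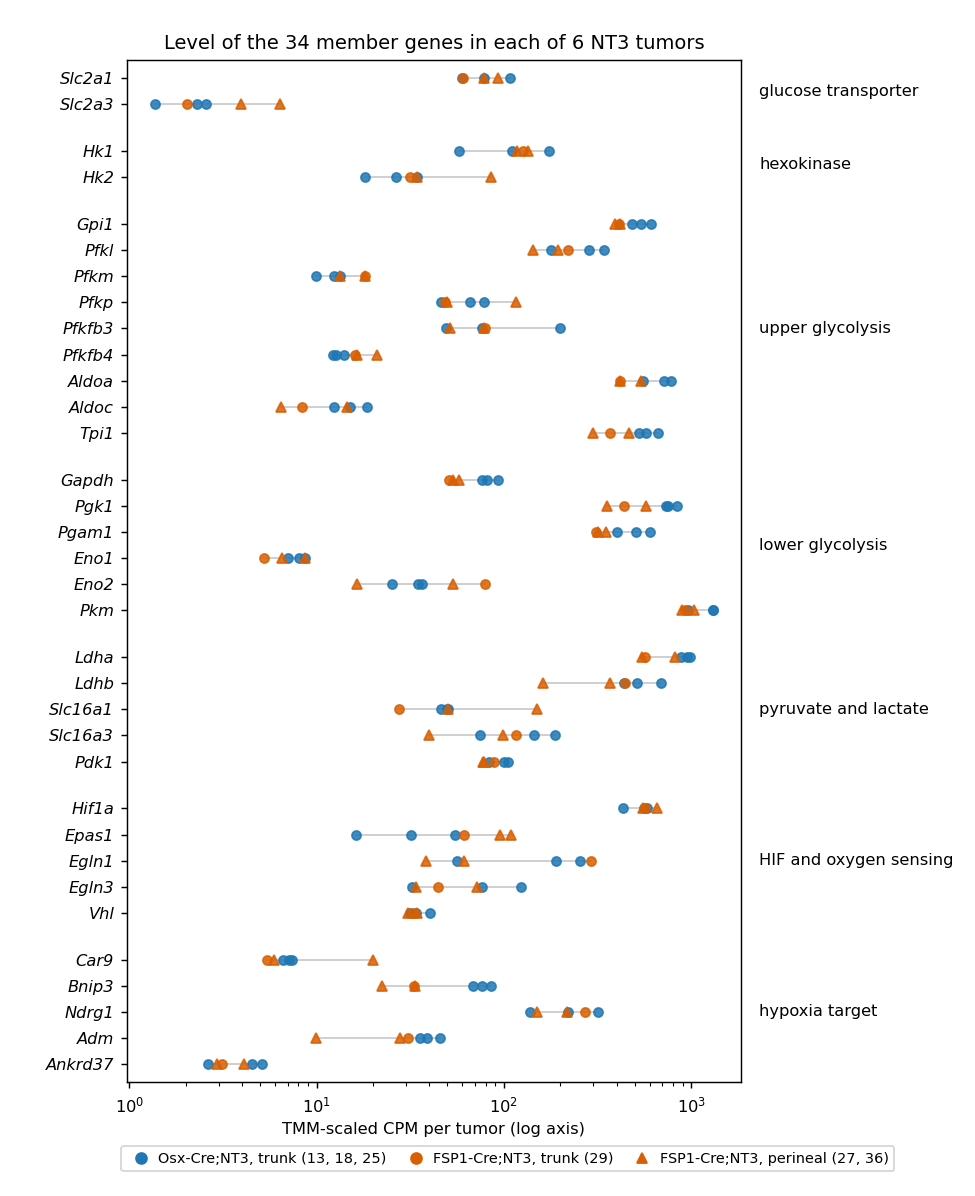
TMM-scaled CPM of each member gene (log axis) in the 6 tumors, grouped by role, with color for line and shape for site. Pkm sits highest, between 897.5 and 1310 CPM, Slc2a3 lowest, and Egln1 and Epas1 spread most widely.

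The members varied among tumors about as much as other genes. The median SD of log2 CPM over the 6 tumors was 0.48 for the members and 0.47 for all genes tested. The steadiest was Vhl, the ubiquitin ligase subunit that binds HIF, from 30.6 to 40.1 CPM, a 1.31-fold range. Pdk1, which holds back pyruvate dehydrogenase, followed with a 1.37-fold range and Pkm with 1.46-fold. The widest were Egln1 with 7.60-fold, Epas1 with 6.75-fold and Slc16a1 with 5.45-fold. Tumors 25 and 13 held the highest value for 11 and 9 of the 34 members, where 21.9% and 11.9% of all genes were highest in these tumors.

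Lines were compared to ask whether tumors driven by the 2 Cre lines differ in these genes. No member passed an adjusted p of 0.05 in edgeR's quasi-likelihood test, where 0% of all genes did, and the lowest adjusted p among members was 0.412. Before adjustment, 7 members had a p below 0.05, 1 higher and 6 lower in FSP1-Cre;NT3, against 10.8% of all genes (7.31% higher and 3.47% lower). That count was 2 without tumor 13, 4 without tumor 27, 2 in trunk tumors alone and from 7 to 9 without any other tumor. The 3 tumors of a line lay wholly apart from those of the other in 12 of 34 members (35.3%), against 17% of all genes. Of these, 9 were lower in FSP1-Cre;NT3 (7.97% of all genes were) and 3 were higher (9.03%). By sign, 23 members were lower and 11 higher, where 51.1% of all genes were higher, but with libraries scaled to equal Gapdh, which shifts the median of all genes to 0.63, 25 members were higher and 8 lower. The median log2 fold change was -0.30 against 0.01 for all genes, and it was -0.19 without tumor 13. DESeq2 called 2.56% of all genes, and among the members Gapdh and Bnip3, both lower in FSP1-Cre;NT3. Fibroblast markers summed to 7345, 7227 and 5668 CPM in tumors 13, 18 and 25 and to 12290, 15600 and 13590 CPM in tumors 27, 29 and 36, with 7 of 8 higher without overlap and 0 at 0. Their part in the differences of the members was not tested.

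Of the 9 lower members, 7 were enzymes of glycolysis or lactate production, namely Gpi1, Aldoa, Tpi1, Gapdh, Pgk1, Pgam1 and Ldha. Pgk1 was at 845, 736 and 755 CPM in tumors 13, 18 and 25 and at 356, 437 and 576 CPM in tumors 27, 29 and 36. Every Osx-Cre;NT3 tumor was above every FSP1-Cre;NT3 tumor, by means of 778 ± 58.0 against 456 ± 111 CPM (SD, n = 3 each). The log2 fold change was -0.77 (SE 0.24, adjusted p = 0.458 by edgeR), with the limit that most of the Pgk1 sequence is shared with other genes.

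Ldha was at 956, 986 and 878 CPM in the Osx-Cre;NT3 tumors and at 547, 571 and 816 CPM in the FSP1-Cre;NT3 tumors. The gap between the lines was narrow, since tumor 36 came close to tumor 25. Its log2 fold change was -0.54 (SE 0.24, adjusted p = 0.459), and it was 0.062 with libraries scaled to equal Gapdh. Tpi1, which interconverts the triose phosphates, was at 663, 528 and 573 CPM against 301, 371 and 464 CPM. Aldoa, which splits the 6-carbon sugar, was at 785, 554 and 714 CPM against 417, 418 and 539 CPM. Both again had tumor 36 as the highest of its line.

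Pgam1, the phosphoglycerate mutase, was at 506, 402 and 599.6 CPM in Osx-Cre;NT3 and at 351, 310 and 318 CPM in FSP1-Cre;NT3 tumors. Gpi1, the second enzyme of the pathway, was at 608, 481 and 539 CPM against 417, 414 and 393 CPM. The log2 fold changes of Tpi1, Aldoa, Pgam1 and Gpi1 lay between -0.64 and -0.41, and those of Aldoa, Pgam1 and Gpi1 turned positive with libraries scaled to equal Gapdh. Pkm was at 1310, 963 and 1304 CPM against 897.5, 928 and 1035 CPM, and tumor 18 lay within the range of the other line. Its log2 fold change of -0.32 was 0.31 with equal Gapdh.

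Gapdh, which oxidizes glyceraldehyde 3-phosphate, was at 92.8, 76.4 and 81.6 CPM in Osx-Cre;NT3 and at 53.6, 51.2 and 57.8 CPM in FSP1-Cre;NT3 tumors. The lines were apart, with a log2 fold change of -0.63 (SE 0.17, adjusted p = 0.458 by edgeR and 0.0353 by DESeq2, and from 0.078 to 0.9998 by edgeR over the other alternatives). Gapdh is widely used as a reference gene, and its difference between these lines was close in size to those of Tpi1 and Pgam1.

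**Figure D2:**
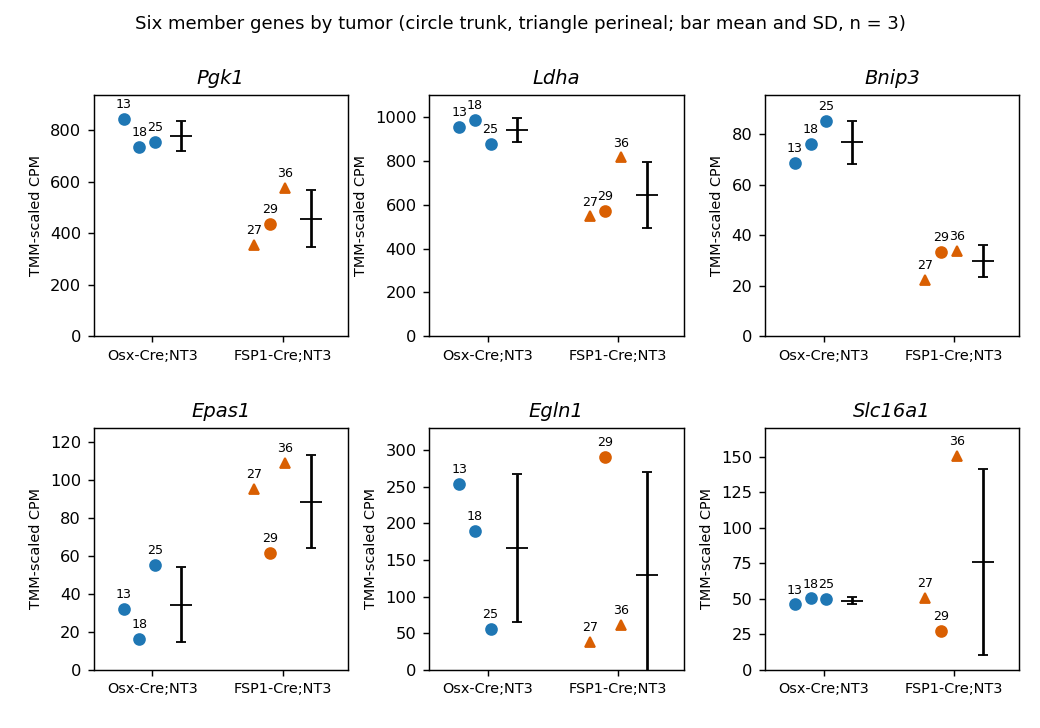
CPM of 6 members in each tumor (numbers), with the mean and SD of each line beside them (n = 3, lower bar of Egln1 cut at 0). The lines lie apart for Pgk1, Ldha, Bnip3 and Epas1, while tumors 13, 18 and 29 are high for Egln1 and tumor 36 for Slc16a1. The Ldha difference has the other sign with libraries scaled to equal Gapdh.

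These enzymes are short and abundant genes, and over all genes tested the difference between the lines ran with gene length. The median log2 fold change of all genes was -0.44 for lengths up to 1000 bases and 0.26 for lengths over 5000 bases. It was -0.44 for the 59 genes of 1500 to 2000 bases above 300 CPM, the class of Pgk1, Ldha, Tpi1, Aldoa and Pgam1, of which 10.2% were positive. Within that class the median deviation from the mean of all tumors was 0.35 in tumor 13, 0.32 in tumor 18 and -0.071 in tumor 25, and -0.22, -0.15 and -0.31 in tumors 27, 29 and 36. The class median was thus higher in each Osx-Cre;NT3 tumor than in each FSP1-Cre;NT3 tumor, but below the mean of all tumors in tumor 25. The enzymes differed from their class there. In tumor 25 Pgk1, Ldha, Tpi1, Aldoa and Pgam1 were at 754.5, 878, 572.5, 714 and 599.6 CPM. Their means over all tumors were 617, 792, 483, 571 and 414 CPM.

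Against the median of its own class of length and level, 20 of the 34 members were lower and 14 higher, with a median difference of -0.14. With the trend on length alone removed from each tumor, 6 members had an unadjusted edgeR p below 0.05, Epas1 higher and Gpi1, Pfkl, Pgk1, Pdk1 and Bnip3 lower, against 12.5% of all genes, and the median of the members was -0.35. Pgk1 was then at -0.65 (SE 0.22). With the trends on length and level both removed, 2 members kept an unadjusted edgeR p below 0.05, Bnip3 and Epas1, against 9.02% of all genes, and the median of the members was -0.19. Pgk1 was then at -0.41 (SE 0.24), Gapdh at -0.25 (SE 0.21) and Ldha at -0.19 (SE 0.23).

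**Figure D3:**
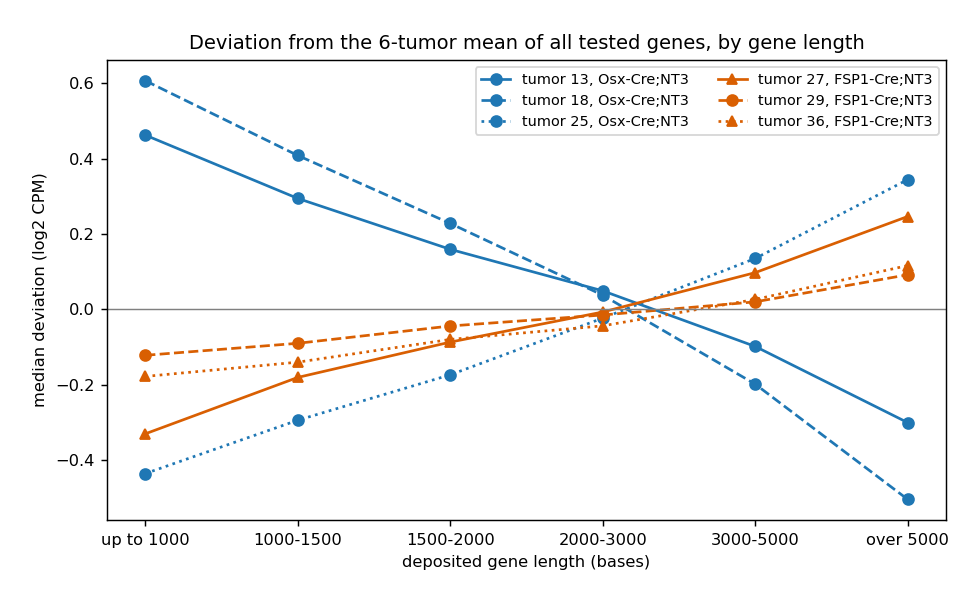
Median deviation of all 16415 tested genes from their mean over the 6 tumors (log2 CPM) in classes of deposited gene length, 1 line per tumor. Short genes were high in tumors 13 and 18 (0.46 and 0.61 for up to 1000 bases) and low in tumor 25 (-0.44), with the FSP1-Cre;NT3 tumors between.

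**Figure D4:**
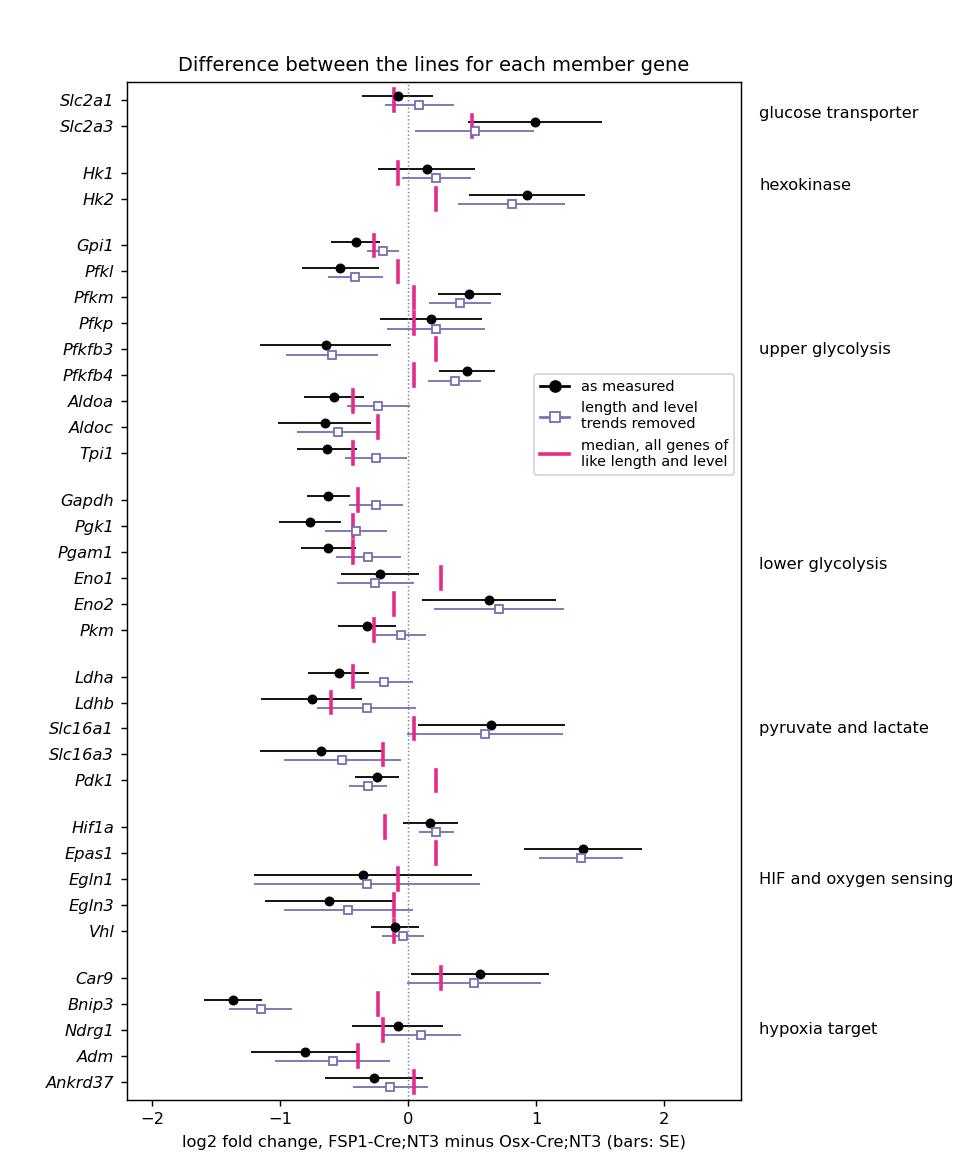
Log2 fold change between the lines with its SE for each member, as measured and with length and level trends removed, beside the median of all genes of like length and level. Bnip3 lies lowest at -1.37 and Epas1 highest at 1.37, and their SE bars reach their class medians in neither fit. Scaling to equal Gapdh adds about 0.63 to every value as measured.

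For glucose entry, the lines overlapped in all 4 members. Slc2a1 (GLUT1) was at 78.1, 59.5 and 108 CPM in Osx-Cre;NT3 and at 78.4, 60.2 and 92.7 CPM in FSP1-Cre;NT3 tumors, so the FSP1-Cre;NT3 tumors lay within the range of the others. Hk2, the hexokinase that HIF induces, was at 26.6, 18.2 and 34.6 CPM against 34.2, 31.5 and 85.1 CPM, with tumor 36 far above the rest. Hk1, the housekeeping form, ranged from 57.5 to 174 CPM, with both ends in Osx-Cre;NT3 tumors.

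Among phosphofructokinases, which commit sugar to glycolysis, Pfkl made up 73.1% ± 10.4 (SD over 6 tumors) of the summed RPKM, Pfkp 21.0% ± 9.23 and Pfkm 5.97% ± 2.00. Pfkm was at 13.3, 12.5 and 9.88 CPM in Osx-Cre;NT3 and at 13.4, 18.2 and 18.1 CPM in FSP1-Cre;NT3 tumors, with tumors 13 and 27 almost level. Pfkfb4, which sets the level of the phosphofructokinase activator, was at 14.0, 12.7 and 12.2 CPM against 16.5, 16.1 and 21.0 CPM. The log2 fold changes were 0.48 and 0.46 (SE 0.25 and 0.22, adjusted p = 0.473 and 0.466 by edgeR). Pfkfb3, its more abundant relative, was at 200 CPM in tumor 25 and between 49.4 and 79.1 CPM in the other 5 tumors, and its log2 fold change of -0.65 was 0.10 without tumor 25.

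The other members of glycolysis and lactate handling overlapped between the lines. Ldhb, which favors lactate use, was at 686, 439.5 and 511 CPM in Osx-Cre;NT3 and at 367.5, 441.5 and 161 CPM in FSP1-Cre;NT3 tumors, lowest in tumor 36. Slc16a3 (MCT4), the lactate exporter that HIF induces, was at 146, 74.8 and 188 CPM against 99.2, 116 and 39.7 CPM, again lowest in tumor 36. Eno2, the neuronal enolase, was at 34.99, 25.2 and 36.5 CPM against 53.4, 79.8 and 16.5 CPM, so tumor 36 also lay apart from its own line. Pfkl ranged from 143 to 341 CPM, Pfkp from 46.1 to 117 CPM, Pdk1 from 77.4 to 106 CPM, Aldoc from 6.48 to 18.7 CPM and Eno1 from 5.21 to 8.70 CPM.

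Of the HIF alpha subunits, Hif1a differed little, from 433 to 655 CPM over all tumors. Epas1, which encodes HIF-2 alpha and is abundant in endothelium, was at 31.9, 16.2 and 55.1 CPM in Osx-Cre;NT3 and at 95.4, 61.6 and 109 CPM in FSP1-Cre;NT3 tumors. The lines were apart, with tumors 25 and 29 nearest each other, and the log2 fold change was 1.37 (SE 0.46, adjusted p = 0.458 by edgeR). With the length and level trends removed it was 1.35 (SE 0.33), and in trunk tumors alone it was 0.84. The 8 endothelial markers summed to 310, 153 and 372 CPM in tumors 13, 18 and 25 and to 540, 399 and 435 CPM in tumors 27, 29 and 36, with 3 of the 8 higher without overlap and 0 at 0. In both series tumor 18 was lowest. The part of endothelial cells in the Epas1 difference was not tested. No stretch of 50 bases of Epas1 (chr17:86753864-86833410 on mm10) occurred in another gene.

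Egln1, the main prolyl hydroxylase, split the tumors across the lines. It was at 254, 190 and 291 CPM in tumors 13, 18 and 29 and at 55.9, 38.3 and 61.2 CPM in tumors 25, 27 and 36. The high and the low tumors thus did not follow the line, and the log2 fold change of -0.35 (SE 0.85, adjusted p = 0.873 by edgeR) was 0.34 with equal Gapdh and 0.80 in trunk tumors. Its neighbours on chromosome 8 stayed flat over the same tumors, Exoc8 within a 1.73-fold range and Tsnax within a 1.21-fold range. Egln3, the other hypoxia-responsive hydroxylase, was at 76.4, 32.3 and 123 CPM against 33.98, 44.8 and 72.1 CPM, and its order over the tumors was another.

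Among hypoxia targets, Bnip3, a mitochondrial protein of mitophagy (chr7:138890836-138909506 on mm10), had the lowest log2 fold change and the lowest adjusted p of all members. It was at 68.7, 76.2 and 85.5 CPM in Osx-Cre;NT3 and at 22.3, 33.3 and 33.7 CPM in FSP1-Cre;NT3 tumors. The lowest Osx-Cre;NT3 tumor was above every FSP1-Cre;NT3 tumor by a wide margin, with means of 76.8 ± 8.40 and 29.8 ± 6.47 CPM (SD, n = 3 each). The log2 fold change was -1.37 (SE 0.23, adjusted p = 0.412 by edgeR and 0.000149 by DESeq2, and from 0.0715 to 0.9998 by edgeR over the other alternatives). It ranged from -1.48 to -1.22 when 1 tumor was left out, and was -1.21 in trunk tumors alone, -0.76 with equal Gapdh and -1.15 (SE 0.25) with length and level trends removed. Of the 50-base stretches of the Bnip3 transcript, 62.4% also occur in other genes, so its level is uncertain too.

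Adm, the vasodilator adrenomedullin, was at 38.8, 35.9 and 45.6 CPM in Osx-Cre;NT3 and at 27.9, 30.7 and 9.94 CPM in FSP1-Cre;NT3 tumors. The lines were apart, mostly through tumor 36, and the log2 fold change of -0.81 (SE 0.42, adjusted p = 0.472) was -0.45 without it. Car9, carbonic anhydrase 9 and a standard hypoxia marker, was between 5.41 and 7.41 CPM in 5 tumors and at 19.9 CPM in tumor 36. Ndrg1 ranged from 138 to 316.5 CPM and Ankrd37 from 2.65 to 5.09 CPM, both with the lines overlapping. The log2 fold changes of Ankrd37, Ndrg1 and Car9 were -0.27, -0.083 and 0.56, of which the first was 0.35 and the second 0.56 with equal Gapdh, and the third -0.32 without tumor 36.

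Site was compared because both perineal tumors could differ from the 4 trunk tumors, but both were of 1 line. Without tumor 29, the only trunk tumor of that line, the site comparison is the same as the line comparison and adds no separate check. No member passed an adjusted p of 0.05 in edgeR, where 0% of all genes did, and the lowest among members was 0.356. Before adjustment 7 members had a p below 0.05, 4 higher in perineal tumors (Slc2a3, Hk2, Slc16a1 and Epas1) and 3 lower (Ldhb, Egln1 and Bnip3), against 10.2% of all genes (8.61% higher and 1.63% lower). That count was 3 without tumor 13, 2 without tumor 36 and from 6 to 9 without any other tumor, and it was 2 with line as a covariate and 1 within FSP1-Cre;NT3 tumors. The sites did not overlap in 7 of 34 members (20.6%), against 19.6% of all genes, with 4 higher (9.98% of all genes) and 3 lower (9.57%). By sign 12 members were higher and 22 lower, where 48.2% of all genes were higher. These counts were 21 and 12 with equal Gapdh, which shifts the median of all genes to 0.34, and 21 and 13 with line as a covariate. The median log2 fold change was -0.32 against -0.02 for all genes, -0.17 without tumor 27 and 0.089 with line as a covariate. DESeq2 called 3.36% of all genes and among members Egln1 (adjusted p = 0.0387, and from 0.2875 to 0.9999 by edgeR over the other alternatives). Its log2 fold change was -1.99 (SE 0.65, adjusted p = 0.367 by edgeR), but trunk tumor 25 lay between the 2 perineal tumors.

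Slc16a1 (MCT1), a lactate transporter, was at 50.3 and 150.5 CPM in the perineal tumors and at 46.0, 50.2, 49.6 and 27.6 CPM in the trunk tumors 13, 18, 25 and 29. The difference rested on tumor 36, since the log2 fold change of 1.21 (SE 0.44, adjusted p = 0.406) was 0.21 without it. For Hk2 the values were 1.11 and 0.30. Slc2a3 was at 3.96 and 6.41 CPM in the perineal tumors and between 1.37 and 2.56 CPM in the trunk tumors. Neutrophils carry much GLUT3, and the 7 neutrophil markers summed to 166 and 482 CPM in the perineal and to between 23.7 and 67.8 CPM in the trunk tumors, with 0 of them at 0 in all tumors. Most of the sum came from S100a8 and S100a9 in tumor 27 (59.6 and 74.6 CPM) and tumor 36 (165 and 269 CPM). S100a8, S100a9, Csf3r, Cxcr2 and Retnlg were higher in both perineal tumors than in every trunk tumor, and Mmp8 and Camp were not. The part of neutrophils in the Slc2a3 difference was not tested.

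Isozyme shares need no scaling between libraries. With 3 tumors per line, the smallest possible p was 0.1 (exact permutation test, two-sided). None of the 10 pairs or triplets could therefore pass an adjusted p of 0.05, and the shares are given as a description. Hif1a made up 95.3, 96.8 and 92.0% of the 2 HIF alpha subunits in Osx-Cre;NT3 and 88.5, 91.2 and 85.1% in FSP1-Cre;NT3 tumors. These were apart, with an exact p of 0.1 and an adjusted p of 0.8. Tumor 36 stood at 1 end in 8 of the 10 groups, among them the enolases, which rest on the uncertain Eno1 level. The enolase group also leaves out Eno3, which was highest in tumor 36. Eno3 took from 16.9 to 77.2% of the summed RPKM of Eno1, Eno2 and Eno3, so the place of tumor 36 there holds for Eno1 and Eno2 alone. By level, 24.8% of all genes tested were highest and 23.8% lowest in tumor 36. Ldha was 77.2% of Ldha and Ldhb there and from 46.3% in tumor 29 up to 60% in tumor 18 in the others, and Slc16a1 was 68.8% of the 2 lactate transporters against 12.2 to 28.1%. Hk1 was 65.9% of the 2 hexokinases against 79.5 to 86.0%, and Pfkl was 52.2% of the phosphofructokinases against 75.3 to 80.0%. The lactate transporters thus leaned to MCT4 (Slc16a3) in 5 tumors and to MCT1 in tumor 36.

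**Figure D5:**
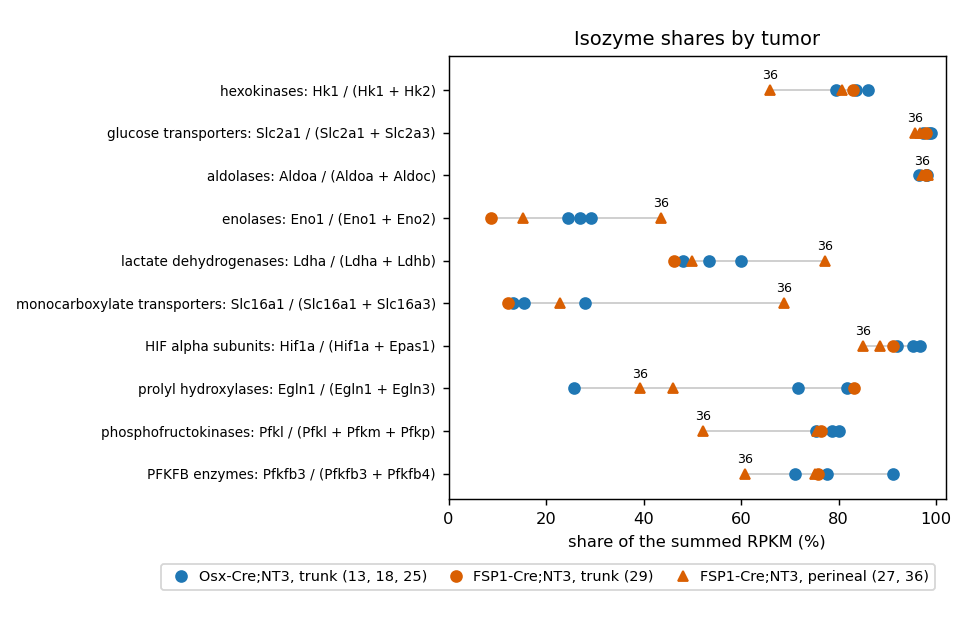
Share of the first-named isozyme in the summed RPKM of its group (percent) by tumor, with color for line and shape for site. Tumor 36, numbered, stands at 1 end for the lactate dehydrogenases (77.2%), lactate transporters (68.8%), hexokinases (65.9%) and phosphofructokinases (52.2%).

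A further 58 genes of the pathway, such as other isozymes, pyruvate dehydrogenase kinases, HIF partners and more targets, were examined in the same fits, and 55 of them were tested. In edgeR 0 of them passed an adjusted p of 0.05 for line or site, where 12 and 8 had an unadjusted p below 0.05 (10.8% and 10.2% of all genes did). DESeq2 called Fam162a and Hif3a for line, and Pklr and Lox for site. Of the 12, 6 were lower in FSP1-Cre;NT3 (Bnip3l, Fam162a, Mif, Bsg, Eloc and Rbx1) and 6 higher (Slc2a12, Pdk2, Pdk4, Lox, Pklr and Hif3a), and with equal Gapdh Bsg and Rbx1 had the other sign. Fam162a, a hypoxia-induced mitochondrial protein, was at 291, 191 and 161 CPM against 85.2, 125 and 90.8 CPM, with a log2 fold change of -1.10 (SE 0.29) that was -0.45 with equal Gapdh. Its length of 635 bases and its level put it in a class of genes with a median log2 fold change of -0.66. Bnip3l, the closest relative of Bnip3, was at 266, 387 and 367 CPM against 230, 209 and 182 CPM, with a log2 fold change of -0.72 (SE 0.22) that was -0.11 with equal Gapdh. Of the 55 tested, 13 (23.6%) were without overlap between the lines, against 17% of all genes. Of these, 8 were lower in FSP1-Cre;NT3 (7.97% of all genes were) and 5 higher (9.03%). Fam162a, Bnip3l, Bsg, Mif and Eloc were among the 8. Bsg, the chaperone that brings lactate transporters to the membrane, was at 474, 465 and 420.5 CPM against 276, 292 and 361 CPM. Vegfa, the best-known hypoxia target, was at 59.05, 32.04 and 183 CPM against 113, 92.3 and 58.8 CPM and overlapped.

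Tumor 36 also differed from the rest in isozymes that liver, kidney or muscle use. Pklr, the liver pyruvate kinase, was at 31.6 CPM in tumor 36 and at most 0.676 CPM in the other 5. Eno3, the muscle enolase, was at 57.3 CPM against 5.69 to 14.8 CPM, and Hif3a at 4.69 CPM against at most 0.385 CPM. The 6 simple epithelium markers summed to 4759 CPM in tumor 36 and to between 621 and 1188 CPM in the others. Of these, Krt8, Krt19, Cldn3 and Epcam were highest in tumor 36. Krt7 was highest in tumor 27 (219 against 98.8 CPM in tumor 36) and Krt18 in tumor 18 (444 against 245 CPM). The 6 smooth muscle markers summed to 2619 CPM against 284 to 542 CPM. The 10 skeletal muscle markers summed to 153 CPM in tumor 36 and to between 101 and 323 CPM in the others. Of these, Acta1, Ckm, Myh2 and Tnnt3 were highest in tumor 36, and the rest were highest in other tumors. The part of these cell types in these levels was not tested.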

How the data were processed

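RNA-Seq of 6 tumors was used, with groups taken from the sample titles. The authors deposited raw counts per gene without normalization, and RPKM values, divided by gene length and library size, which served comparisons between genes and isozyme shares. The study's methods state trimming, alignment to mm10 with HISAT2 (Galaxy) and featureCounts, while the submitters' processing notes name bcl2fastq, TopHat2 2.0.6 and HTSeq. Which made the table, the annotation and the strandedness are not given in the sources used here. All counts are even, as when both ends of a pair are counted.

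Lines were compared with edgeR 4.0.16 in R 4.3.3 (filterByExpr by line, TMM, glmQLFit, glmQLFTest, Benjamini-Hochberg over 16415 genes), and sites likewise. The SE is the log2 fold change divided by the root of F. DESeq2 1.42.0, other scalings (library sizes alone, upper quartile, equal Gapdh), other filters, halved counts, covariates, subsets and leaving out each tumor were alternatives. Lowess trends (span 0.3) of log2 CPM (prior count 2) on gene length and mean level were removed per tumor as an alternative added after the data were seen. P-values measure the spread between tumors.

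The members were picked by symbol and not by level. They, the list of 58 further genes and the marker lists were all chosen with earlier results of these data known. All 34 members are named, further genes come from the lists, and Exoc8 and Tsnax were added after the Egln1 values were seen. A comparison of isozyme proteins was not run. 3 counts correspond to 0.0184 to 0.0579 CPM, for counting error only, since no molecular identifiers were used.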

Additional observations from a re-analysis of the deposited data

Results flagged for a closer look

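In 4 of 34 members, 1 tumor lay further from the other 5 than Dixon's critical value for 6 samples allows (log2 CPM over all 6 tumors, gap over range). These were 11.8% of the members, where 6.89% of all genes tested passed the same value, 65.7% of them through tumor 36, and chance alone would flag about 1.7 of 34 members. Pfkfb3, which raises the activator of phosphofructokinase, was at a log2 CPM of 7.64 in tumor 25, and the next tumor was at 6.31. Slc16a1, the lactate transporter MCT1, was at 7.23 in tumor 36, and the next was at 5.65. Car9, the carbonic anhydrase used as a hypoxia marker, was at 4.32 in tumor 36, and the next was at 2.89. Adm, adrenomedullin, was at 3.32 in tumor 36, the lowest value, and the next was at 4.81. Of 2 hypoxia targets, Car9 was thus highest and Adm lowest in the same tumor.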

How the results depend on the processing

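The direction of the member log2 fold changes held in most settings, and no alternative but DESeq2 moved a member past the threshold. Of 1360 recomputed values, 1247 kept their direction and their side of the threshold or moved by less than the replicate spread. The direction differed in 95, and in 0 of these was the edgeR or DESeq2 p below 0.05 before adjustment.

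Between the lines, DESeq2 called 420 genes, 2 members and 2 companions, where edgeR called 0 of each. Between the sites, DESeq2 called 552 genes, 1 member and 2 companions. With libraries scaled to equal Gapdh, 171 genes and 1 companion, Pklr, were called for site. The median member log2 fold change was then 0.34 for line and 0.093 for site. This scaling shifts all genes, whose medians were 0.63 for line and 0.34 for site, so the members stayed below the median of all genes. For site, the median of the members was 0.089 with line as a covariate and 0.078 within FSP1-Cre;NT3 tumors alone. Leaving out each tumor in turn, the number of genes called for site ranged from 0 to 415 and of companions from 0 to 1, with 415 genes and Pklr called without tumor 27 and 2 genes without tumor 25. The cause of these differences was not tested.

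For line, the following log2 fold changes had the other sign. With library sizes alone they were 0.015 for Slc2a1, 0.023 for Ndrg1 and 0.013 for Vhl. With equal Gapdh they were 0.53 for Slc2a1, 0.22 for Gpi1, 0.12 for Pfkl, 0.047 for Aldoa, 0.0026 for Pgam1, 0.39 for Eno1, 0.31 for Pkm, 0.062 for Ldha, 0.38 for Pdk1, 0.34 for Egln1, 0.0027 for Egln3, 0.56 for Ndrg1, 0.35 for Ankrd37 and 0.51 for Vhl. With site as a covariate they were -0.039 for Slc2a3, -0.39 for Pfkp, -0.82 for Slc16a1, 0.81 for Egln1, -0.38 for Car9 and 0.26 for Ndrg1, and in trunk tumors alone -0.045 for Slc2a3, -0.39 for Pfkp, -0.82 for Slc16a1, 0.80 for Egln1, -0.39 for Car9 and 0.26 for Ndrg1. With the length trend removed they were -0.022 for Hif1a and 0.15 for Ankrd37, and with length and level trends removed 0.085 for Slc2a1 and 0.10 for Ndrg1.

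For site, the value with library sizes alone was 0.013 for Vhl. With equal Gapdh the values were 0.083 for Gpi1, 0.068 for Aldoa, 0.042 for Aldoc, 0.19 for Pkm, 0.11 for Ldha, 0.10 for Pdk1, 0.053 for Egln3, 0.28 for Ankrd37 and 0.29 for Vhl. With line as a covariate they were -0.21 for Pfkm, 0.19 for Aldoa, 0.33 for Aldoc, 0.045 for Tpi1, 0.12 for Gapdh, 0.091 for Pgk1, 0.11 for Pgam1, 0.058 for Pkm, 0.26 for Ldha, 0.25 for Egln3 and 0.17 for Ankrd37, and within FSP1-Cre;NT3 tumors -0.011 for Hk1, -0.22 for Pfkm, 0.18 for Aldoa, 0.31 for Aldoc, 0.033 for Tpi1, 0.11 for Gapdh, 0.079 for Pgk1, 0.10 for Pgam1, 0.047 for Pkm, 0.24 for Ldha, 0.23 for Egln3 and 0.16 for Ankrd37. With the length trend removed they were -0.0086 for Hif1a and 0.25 for Ankrd37, and with both trends removed 0.03 for Pkm and 0.025 for Ldha.

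Leaving out each tumor in turn, line values that crossed 0 ranged from -0.27 to 0.12 for Slc2a1, -0.34 to 0.21 for Ndrg1, -1.78 to 0.084 for Egln1, -0.37 to 0.37 for Pfkp, -0.32 to 1.02 for Slc16a1, -0.32 to 0.84 for Car9, -0.18 to 0.55 for Hk1 and -0.998 to 0.10 for Pfkfb3. For site they ranged from -1.08 to 0.063 for Aldoc, -1.02 to 0.058 for Egln3, -0.38 to 0.063 for Ankrd37, -0.0068 to 0.41 for Pfkm, -0.12 to 0.34 for Hk1, -0.15 to 0.23 for Eno1, -1.43 to 0.28 for Eno2, -0.26 to 0.95 for Pfkp and -0.17 to 1.56 for Car9.

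The limits of these data are those of 6 tumors. Both trend removals were chosen with the data in view. Latency, strain background and doxycycline chow cannot be told apart from the line, and site can be only through the 1 trunk tumor of FSP1-Cre;NT3. Gapdh has no value under equal Gapdh, which fixes it. No paired analysis was possible because the groups share no replicate numbers. Depth did not limit any member, since the lowest level, 1.37 CPM, lay above the 0.0184 to 0.0579 CPM that 3 counts come to.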
